A study of Mus musculus with 12 samples.

Results

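The 7 genes described here are hormone receptors of the mammary gland and genes that act under them, and they were chosen by name. They are the receptor genes Esr1, Pgr and Prlr, the estrogen-responsive gene Greb1, and the genes of 3 secreted or membrane-bound ligands, Areg, Tnfsf11 and Wnt4. Each of the 7 had 1 row of its own in all 12 expression files, among 23301 gene names common to them. Poly-A RNA of 4 groups of 3 samples was sequenced, and levels were given as FPKM, the fragments of a gene scaled by its length and by the number of fragments mapped. Tumor was compared with Normal, and C646 with DMSO.

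The Normal group was mammary gland of wild type FVB females, 12 weeks old and untreated, and each replicate pooled the abdominal and inguinal glands of 3 mice. The Tumor group was untreated mammary tumor of MMTV-PyVT females of the same age on the FVB background, each replicate being a thoracic tumor of 1 mouse. In MMTV-PyVT mice the polyomavirus middle T oncogene is driven by the mouse mammary tumor virus promoter, which is itself active in mammary epithelium and responds to steroid hormones. Genotype, gland position and pooling changed together between Normal and Tumor, so their effects cannot be told apart. The DMSO and C646 groups were also MMTV-PyVT tumors at 12 weeks, from mice injected with the solvent DMSO or with C646, an inhibitor of the histone acetyltransferase p300. The labels give 1 mg/kg for both injections. Each treated replicate was the biggest tumor of 1 mouse.

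Estrogen and progesterone act through nuclear receptors, encoded by Esr1 and Pgr, that are found together in a subset of luminal epithelial cells, the hormone-sensing cells. These cells pass the signal on to their neighbours by ligands: amphiregulin (Areg) is made downstream of estrogen, and RANKL (Tnfsf11) and Wnt4 downstream of progesterone. Prolactin acts through the receptor Prlr, the kinase Jak2 and the transcription factor Stat5a, and drives alveolar development and milk protein genes.

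In the untreated tumors, the RNA of Esr1, Areg, Tnfsf11 and Wnt4 fell relative to normal gland, in a comparison that called 31.7% of all genes tested lower and 60.5% in either direction. Tnfsf11 and Wnt4 entered that test only through their Normal levels. Pgr was lower in every tumor but too low to enter the test. Prlr, at 4.36 ± 0.911 FPKM in Tumor against 6.53 ± 1.64 in Normal (SD, n = 3), did not pass the test. Greb1 was low in all 12 samples. Between DMSO and C646 tumors only Esr1, Prlr and Areg were high enough to test, and 0 of the 3 passed, as did 0 of all 12083 genes tested.

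**Figure D1:**
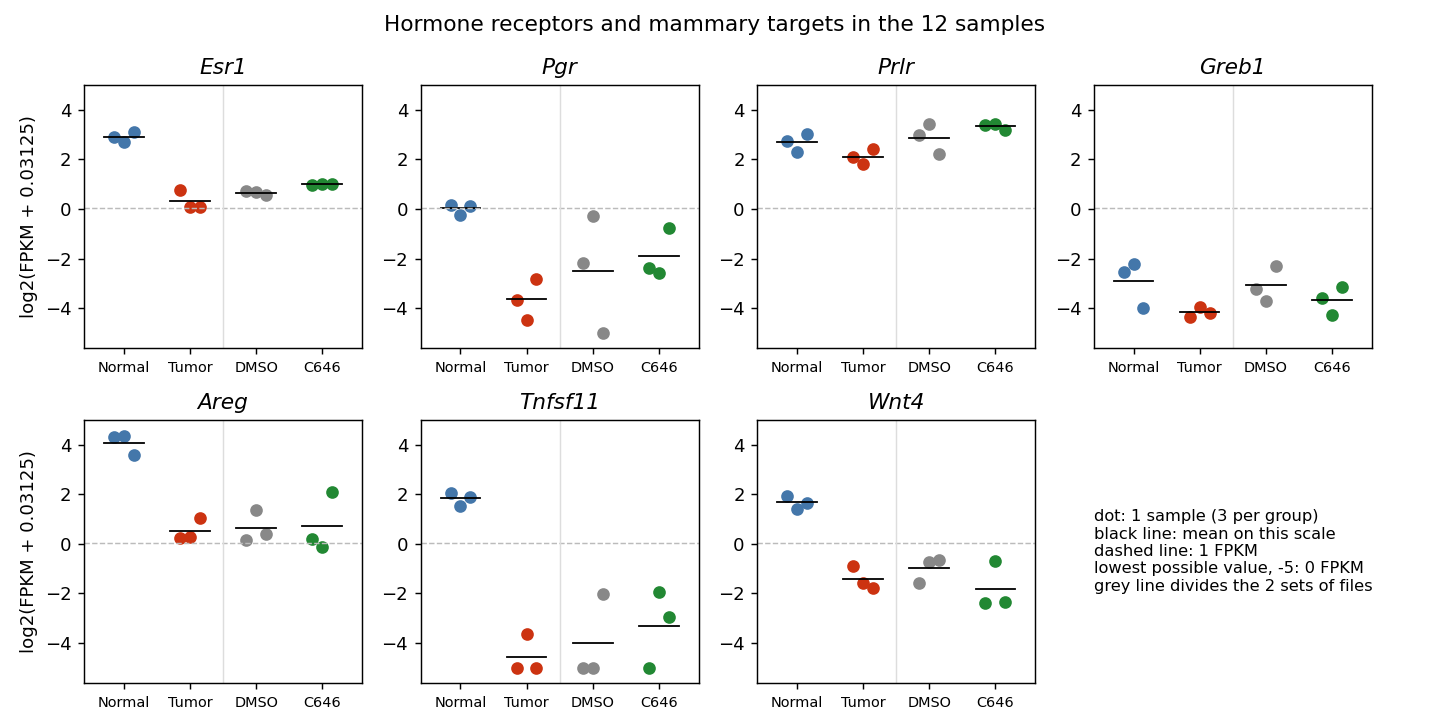
Level of each of the 7 genes, as log2(FPKM + 0.03125), in each of the 12 samples (dots) with the mean of 3 on this scale (black lines), and 1 FPKM as a dashed line. The 3 Normal samples stand above all other samples for Esr1, Pgr, Areg, Tnfsf11 and Wnt4, with a small gap for Pgr. In Tumor against Normal alone, 35.8% of the genes tested lay apart in this direction. For Greb1 Normal overlaps every other group. For Prlr Normal overlaps Tumor and DMSO, and the 3 C646 samples lie above all Normal and all Tumor samples.

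The DNA at the starts of the 7 genes was compared. RefSeq windows on GRCm38.p6, from 250 bases before to 50 bases after an annotated start, were found for all 7 genes, 11 windows in all. They were searched on both strands for the estrogen response element (GGTCA, any 3 bases, TGACC), the progesterone receptor core ACANNNTGT, the STAT core TTCNNNGAA, the AP-1 site TGANTCA and the cAMP response element TGACGTCA, which was added after the sequences were seen. The estrogen response element was in 0 of the 11 windows and in 0.07% of 32851 windows of the genome. The STAT core was in 1 window of Esr1 and 1 of Prlr, and in 8.30% of all windows. The cAMP response element was in the window of Areg and in 1.79% of all. The progesterone receptor core was in 1 window of Greb1 (6.85% of all) and the AP-1 site in 1 window of Prlr (7.81% of all). No matched stretch of a member held more than 1 of these motifs. The windows of 2 receptors that shared a motif but not a result are shown (the second of 2 for Esr1 and the second of 3 for Prlr), with those of the 2 ligands with the largest differences below. Capitals mark the STAT core in Esr1 and Prlr and the cAMP response element in Areg, and the window of Tnfsf11 held no match. A match of letters is a description and not a bound site, and the lack of one says only that these letters are not in the window.
Esr1 (chr10:4709908-4710207, + strand): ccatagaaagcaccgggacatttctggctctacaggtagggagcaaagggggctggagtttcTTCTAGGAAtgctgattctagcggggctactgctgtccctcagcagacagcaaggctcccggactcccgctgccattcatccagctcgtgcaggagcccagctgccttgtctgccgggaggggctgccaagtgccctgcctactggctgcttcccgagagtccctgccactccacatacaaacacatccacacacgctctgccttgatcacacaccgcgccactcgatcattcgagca
Prlr (chr15:10223656-10223955, + strand): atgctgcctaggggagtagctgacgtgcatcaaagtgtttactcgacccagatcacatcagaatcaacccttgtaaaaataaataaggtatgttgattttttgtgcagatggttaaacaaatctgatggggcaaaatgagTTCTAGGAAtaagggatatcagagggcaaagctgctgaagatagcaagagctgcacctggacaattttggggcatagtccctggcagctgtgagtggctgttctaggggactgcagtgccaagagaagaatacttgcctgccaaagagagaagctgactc
Areg (chr5:91139349-91139648, + strand): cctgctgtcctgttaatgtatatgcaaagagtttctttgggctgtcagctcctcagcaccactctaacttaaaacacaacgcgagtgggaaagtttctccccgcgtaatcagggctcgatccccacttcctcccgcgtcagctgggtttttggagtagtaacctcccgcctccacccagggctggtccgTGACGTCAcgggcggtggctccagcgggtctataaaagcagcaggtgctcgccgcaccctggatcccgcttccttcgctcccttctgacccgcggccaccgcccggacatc
Tnfsf11 (chr14:78307994-78308293, - strand): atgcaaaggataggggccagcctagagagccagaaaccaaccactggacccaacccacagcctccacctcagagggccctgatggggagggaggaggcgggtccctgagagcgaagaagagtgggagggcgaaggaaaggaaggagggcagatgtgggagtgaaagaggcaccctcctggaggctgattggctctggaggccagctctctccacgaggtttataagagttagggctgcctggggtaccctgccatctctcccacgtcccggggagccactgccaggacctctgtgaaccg

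Esr1, the gene of estrogen receptor alpha (chromosome 10, 4611593-5005614, + strand of GRCm38), was at 7.54, 6.43 and 8.65 FPKM in Normal replicates 1, 2 and 3. In Tumor it was at 1.66, 1.04 and 1.03 FPKM. All 3 tumors lay below all 3 normal samples, with a 6.08-fold lower mean. On the log2(FPKM + 0.03125) scale Esr1 fell by 2.60 (SE 0.254, 95% interval -3.20 to -2.0, limma adjusted p = 1.59e-04). Over all genes, limma with Benjamini-Hochberg adjustment called 4128 of 13031 lower in Tumor, which is 31.7%, and 3758 higher, which is 28.8%, so that 60.5% of all genes tested were called. A call in this comparison was therefore common, and the size of a difference says more than the call. In a piece of tissue, a smaller share of any cell type that holds Esr1 RNA and less Esr1 RNA per cell cannot be told apart.

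Pgr, the gene of the progesterone receptor (chromosome 9, 8899833-8968611, + strand), was at 1.10, 0.820 and 1.06 FPKM in Normal. The tumors held 0.0481, 0.0145 and 0.111 FPKM. The mean was 17.2-fold lower and the groups did not overlap, as for 35.8% of the genes tested in this direction (33.1% had every tumor above every normal sample). Only 2 samples reached 1 FPKM, so Pgr missed the filter of 1 FPKM in 3 samples and was not tested, and without the filter its limma adjusted p was 0.00733. The log2 difference was -3.67, and it shrank to -0.91 with a pseudocount of 1. After correction for the relative depth of the libraries, which the spacing of the lowest FPKM values gives, the 3 tumor values were 2.0, 1.00 and 7.04 times the smallest, the spacing that a handful of fragments would have.

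Prlr, the prolactin receptor gene (chromosome 15, 10177238-10349180, + strand), was at 6.66, 4.83 and 8.09 FPKM in Normal. In Tumor it was at 4.24, 3.52 and 5.33 FPKM. The highest tumor lay above the lowest normal sample. The log2 difference was -0.57 (SE 0.25, 95% interval -1.16 to 0.02, limma adjusted p = 0.0858). Without Normal replicate 2, the lowest of that group, it was -0.77 with a limma adjusted p of 0.0407. With quantile normalization the difference was -0.24. The annotation places 203 of 15339 exonic bases of Prlr in the coding gene Gm21973 on the same strand as well, and fragments there could count for either.

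Greb1, which encodes a protein that estrogen receptor binds as a cofactor (chromosome 12, 16670615-16800886, - strand), was near the limit of these libraries. It was at 0.142, 0.186 and 0.0327 FPKM in Normal and at 0.0180, 0.0331 and 0.0233 FPKM in Tumor. Normal replicate 3 lay within the range of the tumors. No sample reached 1 FPKM and no test was made. The log2 difference of -1.27 became -0.13 with a pseudocount of 1. Corrected for relative depth, the tumor values were 1.00, 3.06 and 1.98 times the smallest. The libraries did not keep strand, and 736 of 9580 exonic bases of Greb1 overlap the antisense gene Gm48140, so reads of the pair cannot be told apart there.

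Areg encodes amphiregulin, a ligand of the epidermal growth factor receptor (chromosome 5, 91139599-91148432, + strand), and had the highest level of the 7 genes in normal gland. The Normal samples held 19.5, 20.1 and 11.9 FPKM and the Tumor samples 1.14, 1.18 and 2.03 FPKM. All tumors lay below all normal samples, with means of 1.45 ± 0.500 against 17.1 ± 4.57 FPKM (SD, n = 3), an 11.8-fold lower level. Areg fell by 3.55 on the log2 scale (SE 0.305, 95% interval -4.26 to -2.83, limma adjusted p = 9.49e-05). Its receptor gene Egfr was at 4.67 to 6.53 FPKM in Normal and 5.52 to 7.11 FPKM in Tumor, with a log2 difference of 0.17 (limma adjusted p = 0.464).

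Tnfsf11, the gene of RANKL (chromosome 14, 78277445-78308043, - strand), was at 4.13, 2.85 and 3.69 FPKM in Normal. Tumor replicates 1 and 3 were listed at 0 and Tumor replicate 2 was at 0.0490 FPKM. The groups lay far apart, and Tnfsf11 fell by 6.37 on the log2 scale (SE 0.552, limma adjusted p = 9.89e-05). It entered the test only through its Normal levels. The size of the fall depends on the pseudocount, and the difference was -2.15 with a pseudocount of 1 (limma adjusted p = 1.81e-05). A listed 0 is not proof of no reads, since Gapdh, a gene every cell uses, was listed at 0 in 3 of these 6 samples. Of the RANKL receptors, Tnfrsf11a, which encodes RANK, went the other way, from 1.73, 1.89 and 2.28 FPKM in Normal to 5.33, 9.42 and 5.31 FPKM in Tumor, and rose by 1.70 (limma adjusted p = 0.00144). The decoy receptor gene Tnfrsf11b was under 1 FPKM in all 6 samples, at 0.448 to 0.464 in Normal and 0.110 to 0.394 in Tumor.

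Wnt4, a ligand of the Wnt pathway (chromosome 4, 137277489-137299726, + strand), was at 3.79, 2.61 and 3.13 FPKM in Normal. In Tumor it was at 0.503, 0.300 and 0.259 FPKM. Each tumor lay below each normal sample, and the mean was 8.98-fold lower. Wnt4 fell by 3.09 on the log2 scale (SE 0.345, 95% interval -3.90 to -2.28, limma adjusted p = 2.79e-04), or by 1.62 with a pseudocount of 1. Tnfsf11 and Wnt4 passed the filter only through the Normal samples, so once they were in the test they had to differ, unlike Esr1, Areg and Prlr, which reached 1 FPKM in all 6 samples.

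**Figure D2:**
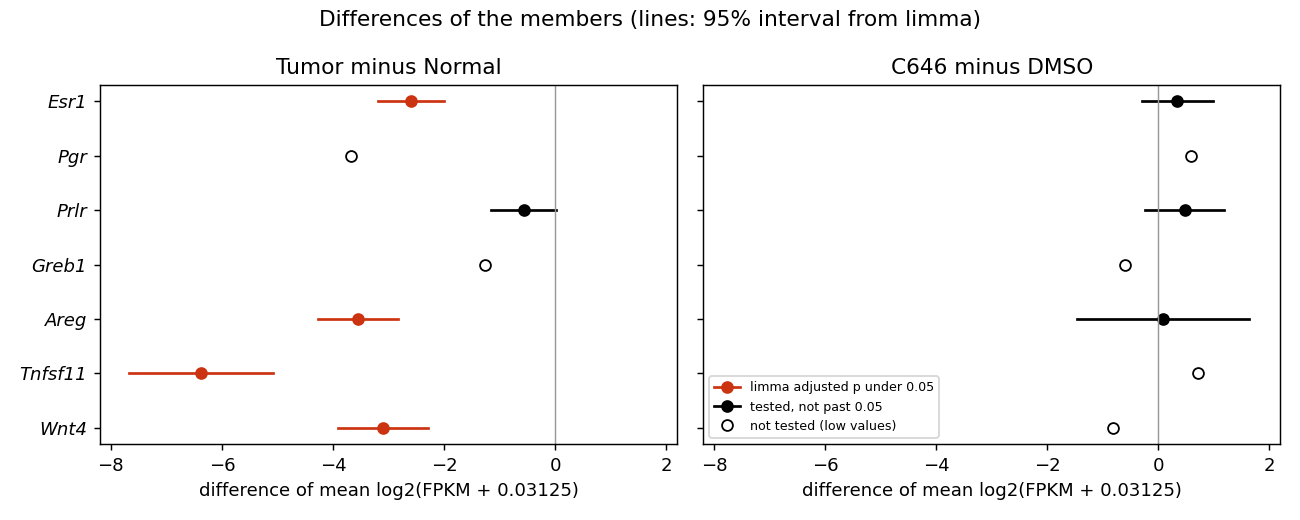
Difference of mean log2(FPKM + 0.03125) for each gene, Tumor minus Normal on the left and C646 minus DMSO on the right, with the 95% interval from limma (lines) where the gene was tested and open circles where it was not. In Tumor 4 genes (red) lie below 0 with intervals that do not reach it, from -2.60 for Esr1 to -6.37 for Tnfsf11, where 31.7% of all genes were called lower and where Tnfsf11 and Wnt4 were tested only through their Normal levels, whereas in C646 the intervals of Esr1, Prlr and Areg all include 0.

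The tumors held more luminal epithelial RNA and far less RNA of fat and lymphocytes than the normal gland. Of all genes tested, 31.7% were called lower and 28.8% higher, which is the background for counts of markers. The summed level of 6 luminal markers was 436 to 929 FPKM in Normal and 2880 to 4074 FPKM in Tumor, and 5 of the 6 rose, among them Krt8 (by 2.57 on the log2 scale), Krt18 (2.43) and Epcam (2.98). The 7 adipocyte markers summed to 25142 to 31628 FPKM in Normal and to 102 to 2405 in Tumor, and all 7 fell. The 8 markers of B and T lymphocytes summed to 362 to 470 FPKM in Normal and to 0.982 to 1.94 in Tumor, where Ms4a1 was listed at 0 in all 3 tumors. The 5 hormone-sensing markers gave 357 to 456 FPKM in Normal and 109 to 294 in Tumor, with Cited1, Foxa1 and Ly6a lower, Prom1 higher and Ly6d not past the threshold. Ly6a and Ly6d, with Normal means of 200 and 124 FPKM, made up most of the Normal sum, so it says little about the other markers. The 8 measured markers of luminal progenitor and alveolar cells all rose, from 1236 to 1669 FPKM in sum to 15331 to 21351. The 5 skeletal muscle markers were at 10.6 to 81.6 FPKM in Normal and 1539 to 4364 in Tumor. The 9 basal markers gave 217 to 367 FPKM in Normal and 148 to 260 in Tumor, with 2 higher and 5 lower. Fibroblast, endothelial and macrophage lists were lower in part, with 3 of 4, 5 of 5 and 3 of 5 markers called. The part of these changes in cell makeup in the levels of the 7 genes was not tested. The ratio to luminal markers that follows does not test it either, since it takes no account of the other cell types.

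**Figure D3:**
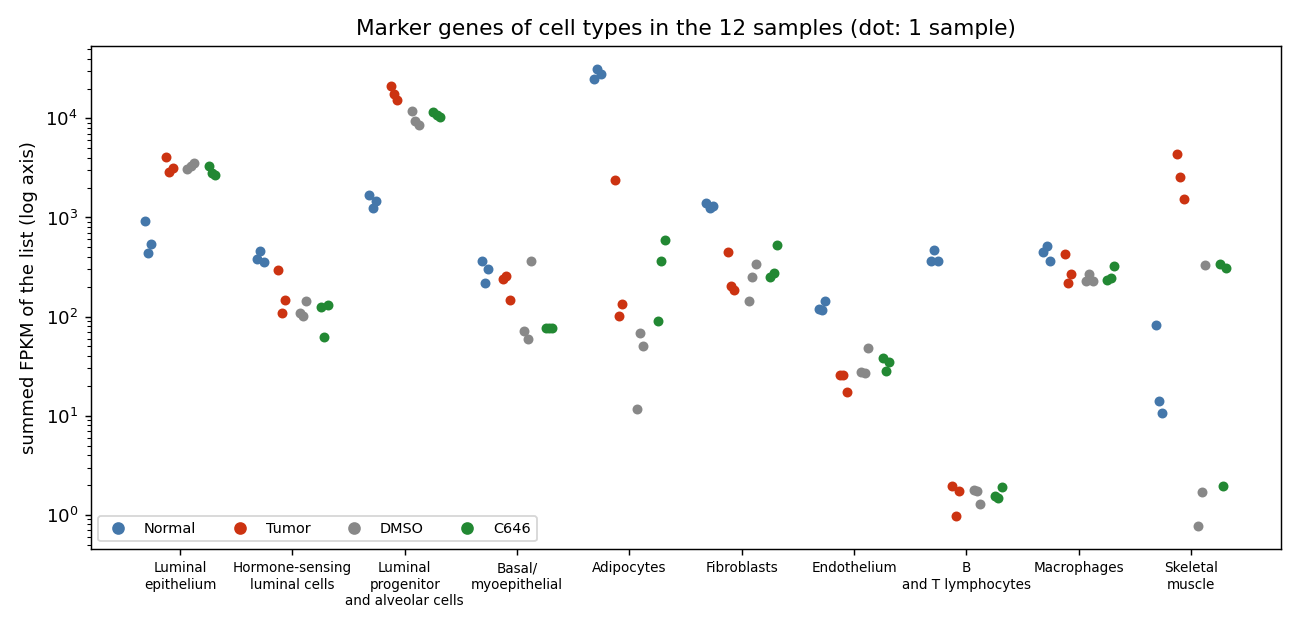
Summed FPKM (log axis) of marker lists of 10 cell types in each of the 12 samples (dots), by group. Luminal markers are higher in the tumors of all 3 groups than in Normal, those of B and T lymphocytes are at or under 1.94 FPKM in every tumor, and those of skeletal muscle are above 300 FPKM in the untreated tumors and in 3 of the 6 treated ones.

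Each gene was then set against the luminal RNA of its own sample, as its log2(FPKM + 0.03125) minus the mean of the 6 luminal markers on that scale. That mean rose from 6.40 ± 0.552 in Normal to 8.95 ± 0.241 in Tumor (SD, n = 3), so the difference of every gene moved by 2.54 toward lower in Tumor. Per luminal marker 90.4% of the 13031 genes tested were lower in all 3 tumors and 2.1% higher in all 3, with a median difference of -2.56. The lack of overlap of the 7 members on this scale is therefore close to what nearly all genes show and is no result about them. Against that median, Prlr was at -3.11, near the bulk of genes, and Greb1 at -3.81. Esr1 was at -5.14, Wnt4 at -5.64, Areg at -6.09, Pgr at -6.21 and Tnfsf11 at -8.92. Each has an exact permutation p of 0.1 (two-sided), which is the smallest that 3 samples against 3 can give and cannot pass 0.05. With Epcam alone as the reference the difference of Prlr was -3.54, and with Krt8 and Krt18 it was -3.06.

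**Figure D4:**
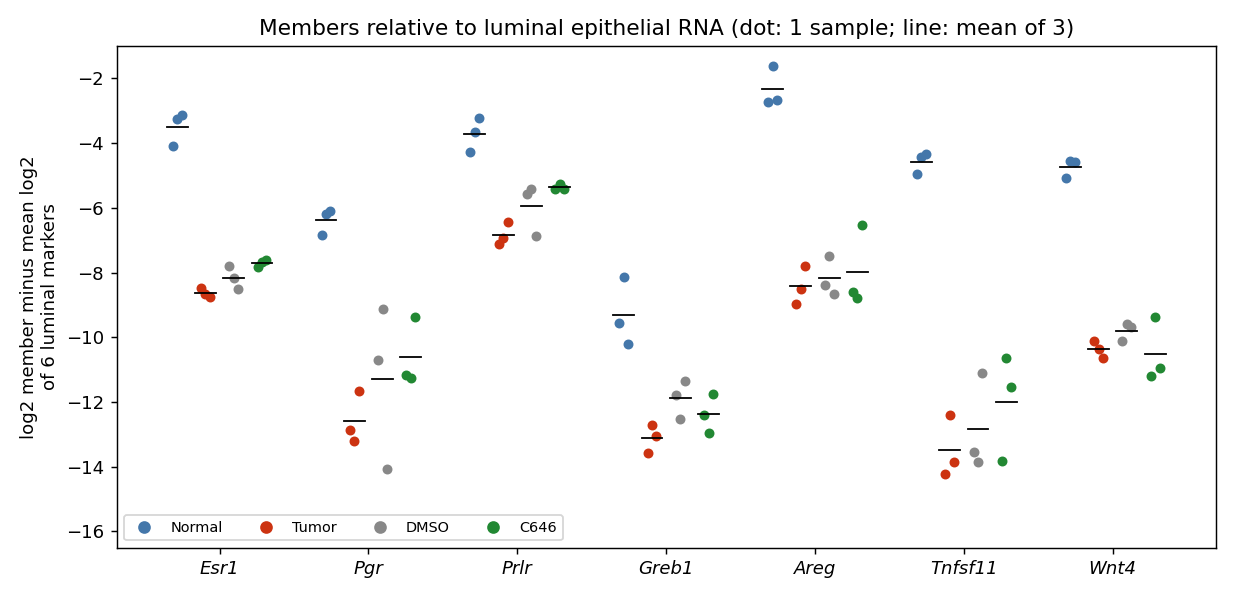
Log2 level of each gene minus the mean log2 level of Epcam, Krt8, Krt18, Krt19, Cldn3 and Cldn7 in the same sample, for the 12 samples (dots) and group means (lines). The reference itself was 2.54 higher in Tumor than in Normal, so 90.4% of all genes tested lie lower in every tumor on this scale; the gap between Normal and Tumor is smallest for Prlr (-3.11) and largest for Tnfsf11 (-8.92) among the 7.

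Other genes of the same pathways moved in both directions. The counts of each list stand against 60.5% of all genes tested that were called, 31.7% lower and 28.8% higher. Among 16 tested genes of the steroid receptors and their cofactors, 6 were higher and 8 lower in Tumor, with a median log2 difference of -0.41 against -0.02 for all 13031 genes. Foxa1, a pioneer factor that opens chromatin for the estrogen receptor, went from 11.2, 6.27 and 11.2 FPKM to 1.21, 0.0727 and 0.312, and fell by 4.71 (limma adjusted p = 0.00214). Of the tumors only replicate 1 reached 1 FPKM, so Foxa1 entered the test only through Normal. Cited1, a coactivator of the estrogen receptor, fell by 4.37 (limma adjusted p = 0.00382), and both are also markers of the hormone-sensing list above. Tfap2c, a transcription factor of luminal cells, rose by 3.31 to 43.3 to 69.9 FPKM (limma adjusted p = 2.43e-04). Of the 18 genes listed, Esr2 was too low to test and Esrra had no row of its own.

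Of 6 tested genes of steroid synthesis and conversion, 2 rose and 2 fell, and the median difference was 0.13. Akr1c18, which inactivates progesterone, was at 3.51 to 10.6 FPKM in Normal and at 0.274, 0 and 0 in Tumor (difference -6.49, limma adjusted p = 9.26e-04). Hsd17b2, which converts estradiol to the weaker estrone, was listed at 0 in all 3 normal samples and was at 2.71, 9.89 and 1.52 FPKM in Tumor (limma adjusted p = 2.61e-04). Akr1c18 entered the test only through Normal and Hsd17b2 only through Tumor, so once tested they had to differ. Srd5a1, a steroid reductase, rose by 2.88 (limma adjusted p = 5.64e-05). In the list of other estrogen or progesterone targets all 7 tested genes were called, 5 lower and 2 higher, with a median of -1.40. Of all genes tested, 60.5% were called. Id4, which entered the test only through Normal, fell by 3.80 and Cxcl12 by 3.48, and Xbp1, a factor of the secretory pathway, rose by 3.05 from 62.0 to 85.3 FPKM in Normal to 602 to 638 FPKM in Tumor.

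Of 13 tested receptors and modulators of the ligands, 6 rose and 4 fell, with a median of 0.17. Rspo1, which strengthens Wnt signals, fell by 4.92 (limma adjusted p = 0.00147), and the Wnt receptor gene Ror2 fell by 2.17 (limma adjusted p = 0.00309). Both reached 1 FPKM in the Normal samples alone and entered the test only through them. Fzd2, Fzd6, Fzd7, Lrp5 and Erbb2 rose with Tnfrsf11a, and Fzd1 and Lrp6 fell. The ligands that fell therefore stood beside receptors of which some were higher and some lower.

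Around Prlr, 11 of 12 listed genes of prolactin signaling were tested, of which 2 rose, 4 fell and 5 were not called (median -0.47). Stat5a, the factor downstream of Prlr, was at 24.8 to 26.1 FPKM in Normal and 17.4 to 30.9 FPKM in Tumor, with a difference of -0.06 (limma adjusted p = 0.818). Elf5, a factor of alveolar cells, rose by 3.49 (limma adjusted p = 3.45e-04) from 12.7 to 31.2 FPKM in Normal to 162 to 362 FPKM in Tumor. Ghr, the growth hormone receptor gene, fell by 4.36 (limma adjusted p = 2.37e-05), and Socs1, an inhibitor of Jak kinases, fell by 2.39 (limma adjusted p = 0.00154). Of the 6 milk genes 3 rose and 0 fell, namely Wap (10.70), Lalba (6.92) and Csn3 (6.29). Wap, with a mean of 1.19 FPKM in Normal, would not have entered the test without its Tumor samples. Csn3 was at 122 to 231 FPKM in Normal and 9136 to 15346 FPKM in Tumor, whereas Csn1s1, Csn1s2a and Csn2 had positive differences that did not pass.

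**Figure D5:**
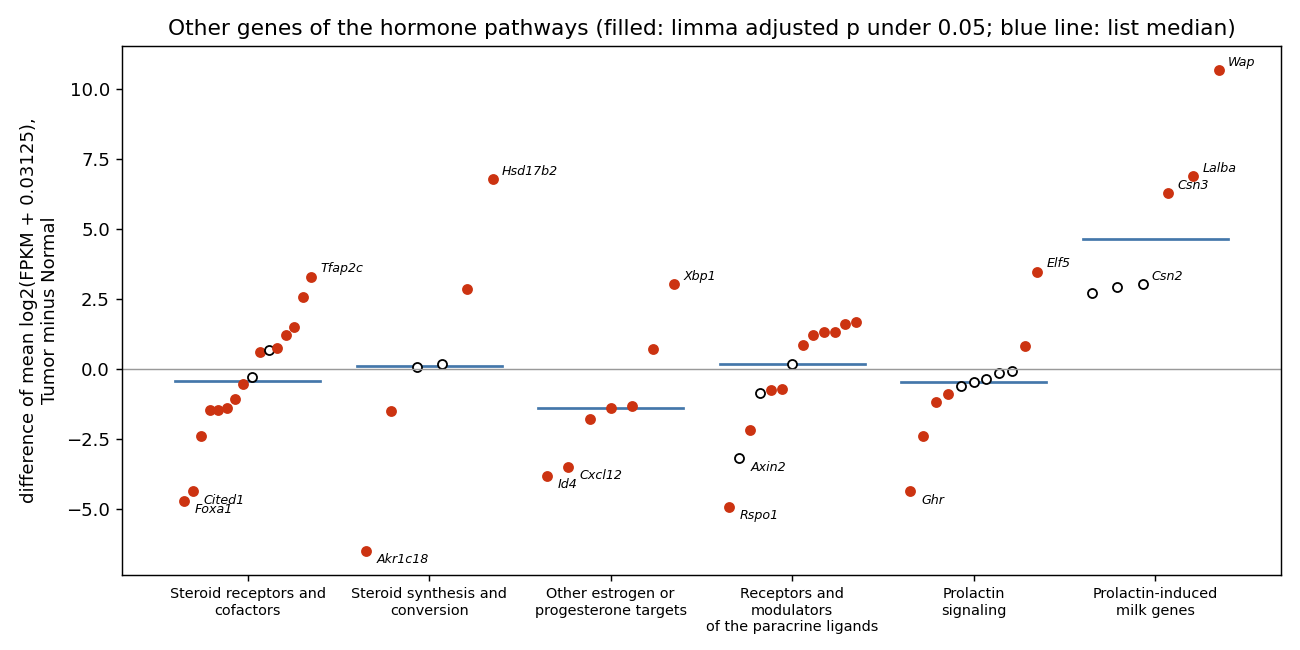
Difference of mean log2(FPKM + 0.03125), Tumor minus Normal, of the tested genes of 6 pathway lists (dots, filled where the limma adjusted p is under 0.05), with the list median (blue line). The lists of steroid receptors, steroid synthesis and ligand receptors spread to both sides of 0, and the 6 milk genes all lie above it, with a median of 4.66.

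C646 was given to test whether inhibition of p300 changes these tumors. Between C646 and DMSO tumors limma called 0 of 12083 genes in either direction, which is 0%, and at an unadjusted p under 0.05 there were 169 higher and 215 lower genes. Of the 7 members Esr1, Prlr and Areg passed the filter on low values. Over the genes tested, samples correlated at 0.888 to 0.923 within DMSO, 0.951 to 0.959 within C646 and 0.890 to 0.961 between them. Skeletal muscle markers summed to 334 to 338 FPKM in DMSO replicate 3 and C646 replicate 1 and to 309 FPKM in C646 replicate 3, but to at most 1.97 in the others. Basal markers summed to 71.3, 59.2 and 367 FPKM in DMSO replicates 1, 2 and 3 and to 76.0 to 76.4 FPKM in C646. Adipocyte markers summed to 11.6 to 68.9 FPKM in DMSO and 90.6 to 586 FPKM in C646. The part of these cell types in the members' levels was not tested.

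Esr1 was at 1.64, 1.56 and 1.44 FPKM in DMSO and at 1.95, 1.96 and 1.96 FPKM in C646. All 3 C646 samples lay above all 3 DMSO samples, as they did for 4.04% of the genes tested (all lay below for 4.52%), and the ratio of means was 1.27. The log2 difference was 0.34 (SE 0.27, 95% interval -0.30 to 0.98, limma adjusted p = 0.99). Per luminal marker the Esr1 groups overlapped, with a difference of 0.45 and an exact permutation p of 0.2.

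Prlr was at 7.82, 10.6 and 4.57 FPKM in DMSO and at 10.5, 10.7 and 9.04 FPKM in C646. DMSO replicate 2 lay within the range of C646. The log2 difference was 0.47 (SE 0.303, 95% interval -0.25 to 1.19, limma adjusted p = 0.99), and without DMSO replicate 3 it was 0.14. Per luminal marker the difference was 0.59 with no overlap (exact permutation p = 0.1, the smallest possible), and without DMSO replicate 3 it was 0.14. On that scale 6.57% of the genes tested were higher in all 3 C646 samples and 0.737% lower in all 3.

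Areg was at 1.09, 2.53 and 1.29 FPKM in DMSO and at 1.12, 0.893 and 4.16 FPKM in C646. Each group had 1 sample well above the others. The log2 difference was 0.08 (SE 0.652, 95% interval -1.46 to 1.62, limma adjusted p = 0.999), and it turned to -0.59 without C646 replicate 3, to -0.16 without DMSO replicate 1 and to -0.04 without DMSO replicate 3. This interval is wide enough to hold a change of more than 1 log2 unit either way.

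The other 4 genes were too low to test with treatment. Pgr was at 0.192, 0.795 and 0 FPKM in DMSO and at 0.164, 0.135 and 0.563 FPKM in C646. Its difference was 0.58 on the log2 scale, but the mean FPKM was lower in C646, so the sign depended on the scale. It was -0.017 with a pseudocount of 1, and -0.68 without DMSO replicate 3, the library at 0. Tnfsf11 was listed at 0, 0 and 0.212 FPKM in DMSO and at 0, 0.227 and 0.0991 FPKM in C646. Wnt4 was at 0.308, 0.568 and 0.613 FPKM in DMSO and at 0.162, 0.587 and 0.166 FPKM in C646, with overlapping groups and a difference of -0.82. Greb1 was at 0.0756, 0.0464 and 0.172 FPKM in DMSO and at 0.0524, 0.0205 and 0.0814 FPKM in C646, and its difference of -0.60 rested on values of 1.00 to 8.87 times the smallest after correction for depth. Per luminal marker the groups of these 4 genes and of Areg overlapped, with exact permutation p values from 0.4 to 0.9.

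None of the pathway genes was called with C646, in 15 tested steroid receptors and cofactors, 5 steroid enzymes, 7 other targets, 11 receptors and modulators, 11 prolactin signaling genes and 6 milk genes, where limma called 0 genes in all. Stat5a was at 19.2, 27.7 and 28.2 FPKM in DMSO and at 30.6, 31.9 and 39.0 in C646, a difference of 0.45 (limma adjusted p = 0.99). The groups did not overlap, as for 4.04% of the genes tested in this direction. Elf5 overlapped, with 155 to 239 FPKM in DMSO and 237 to 295 FPKM in C646. The median of the milk genes was 1.57, from 0.14 for Csn3 up to 3.32, with a spread between samples that left all 6 uncalled. Tnfrsf11a was at 8.08 ± 1.04 FPKM in DMSO and 8.96 ± 1.48 FPKM in C646 (SD, n = 3), and Egfr at 7.90 to 21.1 and 8.98 to 12.5 FPKM.

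Side by side over the 4 groups, and with no test between the 2 sets of files, the order of the means differed between Prlr and the other genes. Normal was highest for Esr1, Pgr, Greb1, Areg, Tnfsf11 and Wnt4, and apart from the next group for all of these but Greb1. For Pgr the gap was small, from 0.820 FPKM in Normal replicate 2 to 0.795 in DMSO replicate 2. How many of all genes stand so over the 4 groups was not counted. In Tumor against Normal alone it was 35.8% of the genes tested. For Prlr the order was C646 (10.1 ± 0.909 FPKM), DMSO (7.67 ± 3.03), Normal (6.53 ± 1.64) and Tumor (4.36 ± 0.911; SD, n = 3), and each neighbour in this order overlapped. Groups that were not neighbours could lie apart. Prlr in C646, at 9.04 to 10.7 FPKM, lay above Normal, at 4.83 to 8.09, and above Tumor, at 3.52 to 5.33. Among the 3 tumor groups, Esr1 in DMSO overlapped Tumor, and Areg, Tnfsf11 and Wnt4 overlapped between neighbours. Pgr was lower in Tumor, at 0.0145 to 0.111 FPKM, than in C646, at 0.135 to 0.563 FPKM, but DMSO spanned 0 to 0.795 FPKM.

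The genes nearest in pattern over the 12 samples were found by the mean absolute difference of log2(FPKM + 0.03125) profiles centred on their own means, among 13232 genes, as a description. For Esr1 they were Rab32, Mbnl1 and Hibch, with distances of 0.17 to 0.19. For Prlr they were Zmym6, Bhlhb9 and D430042O09Rik at 0.16 to 0.17. Areg lay nearest to the joined row of Mir6537 and Pou2f2, Bin2 and Plcb2 (0.37 to 0.39), Wnt4 to Calhm2, Maf and Fgd5 (0.37 to 0.42), and Tnfsf11 to Tnfsf14, Slc6a4 and Gnai1 (0.59 to 0.66). Pgr lay nearest to Nr4a3, the joined row of Mir7025 and Pdgfra, and Prdm16 (0.59 to 0.63), and Greb1 to Pigw, Jag1 and B3gnt2 (0.36). These points share the large step between normal gland and tumor tissue, so a small distance says little beyond that step.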

How the data were processed

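RNA-seq libraries of poly-A RNA, made without strand information, were compared in 12 samples of 4 groups of 3. The authors removed adaptors with cutadapt, aligned to mm10 by TopHat2 (2.1.1) and computed the FPKM per gene with Cufflinks (2.2.1); the deposited values are FPKM, not counts, and the annotation used is not given in the sources used here. The methods of the study state a sequencing depth for the libraries as a whole; the reads mapped in each sample are not in these tables. FPKM summed to between 525515 and 753124 per sample over named rows. Of 26220 rows in the Normal and Tumor files, 1837 without a name were left out, and rows with repeated names were summed, leaving 23704 names (23691 in the DMSO and C646 files). Names found only in a row joined with other names (Ccnd1, Esrra, Pdgfra in both sets, Aldh1a3 and Erbb3 in Normal and Tumor, Krt14 in DMSO and C646) had no value, nor had Sts.

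Each comparison was fitted with limma 3.58.1 in R 4.3.3 (lmFit, eBayes with trend, two-sided) on log2(FPKM + 0.03125), keeping genes that reached 1 FPKM in 3 or more of its 6 samples. P-values were adjusted over all kept genes by Benjamini-Hochberg, with a threshold of 0.05. Differences of low genes depend on the pseudocount in size, and for Pgr in C646 against DMSO also in sign. Depth relative to another library was read from the spacing of FPKM values under 0.1. Ratios to luminal markers were compared with exact permutation tests in Python 3.11.15 (scipy 1.17.1, numpy 2.4.6, pandas 2.3.3, matplotlib 3.10.9). The fit was tested on simulated data. Positions came from GENCODE on GRCm38 and promoter windows from RefSeq on GRCm38.p6. The 2 sets of files were made with different rows and were never tested against each other.

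The members, pathway lists, marker lists and rules were chosen with earlier results of these data known. The text names all members, the 3 genes of each pathway list with the largest called difference without overlap, the 3 nearest genes in pattern of each member, and Tnfrsf11a, Tnfrsf11b, Egfr, Krt8, Krt18, Epcam, Stat5a and Elf5. Other genes of a list are named where its count is told, chosen after their values were seen. Alternatives were pseudocounts of 1 and 0.25, no filter, median-ratio scaling, quantile normalization, no trend, the highest row per name, a replicate block, other luminal references and leaving out each replicate.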

Additional observations from a re-analysis of the deposited data

How the results depend on the processing

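Of the alternatives other than leaving out a replicate, 2 values changed sign, both with a pseudocount of 1 and both untested or uncalled: Pgr in C646 against DMSO, from 0.58 to -0.017, and Greb1 per luminal marker, given next. A further 2 passed the threshold only under an alternative. The low genes moved with the pseudocount: Pgr in Tumor against Normal went from -3.67 to -2.02 with a pseudocount of 0.25 and to -0.91 with 1, Greb1 from -1.27 to -0.41 and -0.13, and Greb1 per luminal marker in C646 against DMSO from -0.48 to 0.055 with 1. Without the filter on low values, Pgr in Tumor against Normal was tested and had a limma adjusted p of 0.00733 at -3.67, and 6 genes were higher and 9 lower in C646, none of them a member. With quantile normalization the median over all genes in Tumor against Normal was 0.10 against -0.02, and 53.4% of the calls were higher against 47.7%.

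The same replicate number did not tie samples together: deviations from the group means correlated between -0.0982 and 0.0104 in Normal and Tumor and between 0.0699 and 0.175 in DMSO and C646. With the replicate block, Prlr in Tumor against Normal kept its difference of -0.57 at a limma adjusted p of 0.0410, the calls over all genes were 3439 higher and 3827 lower, and 0 were called with C646; no other member changed its call.

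Leaving out 1 replicate at a time gave ranges of -0.77 to -0.40 for Prlr in Tumor against Normal, past the threshold only without Normal replicate 2, and of -0.59 to 0.50 for Areg in C646 against DMSO. Per luminal marker in C646 against DMSO, Areg ranged from -0.52 (without C646 replicate 3) to 0.61 and Pgr from -0.69 (without DMSO replicate 3) to 1.78. Pgr in C646 against DMSO, which was not tested, ranged from -0.68 (without DMSO replicate 3) to 1.68. Between 0 and 11 genes were lower with C646, the 11 without DMSO replicate 2. The reasons for these shifts were not tested. With 3 samples a group, an exact test cannot reach 0.05, and values of a few fragments limit Pgr, Greb1 and Tnfsf11 in the tumors.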
